A study of Rattus norvegicus with 12 samples.

Results

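The genes followed here are the hypoxia inducible transcription factors, the vascular endothelial growth factor (VEGF) pathway that they drive, and a pair of their other well known targets, in rat lung after trauma and hemorrhagic shock. All probe sets whose gene symbol in the platform table was Hif1a, Epas1, Vegfa, Flt1, Kdr, Nrp1, Adm or Slc2a1 were taken, whatever their values. This gave 11 probe sets for 7 of the 8 genes, out of 4736 genes named by a single symbol and 8740 probe sets tested. No probe set carried the symbol Epas1, so Epas1 was not analysed here. Vegfa had 4 probe sets and Slc2a1 had 2, and the other 5 genes had 1 each.

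Lung RNA from male Sprague-Dawley rats of 300 to 420 g was measured on RG-U34A arrays (Affymetrix), 12 in all, with 3 for each of 4 groups. All rats had a femoral artery and a jugular vein cannulated and a laparotomy, which stands for the trauma (T). Rats with hemorrhagic shock (T/HS) were bled to a mean arterial pressure of 30 mmHg for 90 min and then received their shed blood back, and rats with sham shock (T/SS) were not bled. In the groups T/HS-LDL and T/SS-LDL the mesenteric lymphatic vessels were first ligated and divided (lymph duct ligation, LDL). Lungs were taken 3 h after the shock or sham period, 4.5 h after its start. Per the design text, T/HS lungs were injured and lungs of the other 3 groups were not, so T/HS against T/SS asks for the effect of shock with injury, T/HS against T/HS-LDL for that of injury among shocked rats, and T/HS-LDL against T/SS-LDL for that of shock without injury. T/HS and T/HS-LDL also differ by the ligation itself, and whole lung was used, so fewer cells of a type and less RNA per cell cannot be told apart.

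Hypoxia inducible factors are made of an oxygen regulated alpha subunit, encoded by Hif1a or Epas1, and a stable partner, encoded by Arnt. In normal oxygen, prolyl hydroxylases mark the alpha subunit for destruction by the von Hippel-Lindau protein, so the factor is regulated mainly as a protein and its own mRNA need not move with its activity. Among its targets are Vegfa, the main growth and permeability factor of blood vessels, Adm (adrenomedullin, a vasodilator peptide) and Slc2a1 (the glucose transporter GLUT1). Vegfa is made in lung chiefly by the alveolar epithelium and acts on the capillary endothelium through the receptor tyrosine kinases Flt1 (VEGFR1) and Kdr (VEGFR2), with Nrp1 (neuropilin 1) as co-receptor.

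In each group a pair of arrays held nearly the same values: the robust SD of their log2 differences was 0.00993 to 0.0548, against 0.164 to 0.232 for the other 8 pairs within groups. These were replicates 2 and 3 of T/SS and replicates 1 and 3 of the other groups. The labels call all arrays biological replicates. Each such pair was averaged, which left 8 samples, 2 in each group, and p-values measure only the spread between these samples. The median intensity of an array was 647 to 677 units. The small number of samples limits the precision of everything that follows, and with limma no probe set of the 8740 passed an adjusted p of 0.05 in any comparison, members included.

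The promoters of 5 genes are shown first. Of these, Vegfa, Kdr and Nrp1 differed most between groups. Hif1a and Slc2a1 had the only windows of the 8 genes that held ACGTG, the form of the hypoxia response core that was searched. Each promoter is given as the 250 bases before the annotated start in RefSeq's rat assembly GRCr8. All 8 genes matched an entry in the RefSeq table. Capitals mark each match, on either strand, to ACGTG or to the GC box bound by Sp1, GGGCGG. Other forms of the core of the hypoxia response element were not searched or marked. The motifs do not overlap each other in these windows. The window of Vegfa (chr9:22452604-22452853, + strand) held 3 GC boxes, starting 84, 73 and 58 bases before the start, and no ACGTG. A second annotated Vegfa start had neither motif in its window.
Vegfa: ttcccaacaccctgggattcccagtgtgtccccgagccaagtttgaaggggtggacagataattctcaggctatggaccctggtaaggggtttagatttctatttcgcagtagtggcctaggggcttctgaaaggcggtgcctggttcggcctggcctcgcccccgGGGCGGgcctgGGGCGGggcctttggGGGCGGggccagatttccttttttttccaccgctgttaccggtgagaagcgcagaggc
The window of Kdr (chr14:32571813-32572062, + strand) held 1 GC box, 59 bases before the start, and no ACGTG.
Kdr: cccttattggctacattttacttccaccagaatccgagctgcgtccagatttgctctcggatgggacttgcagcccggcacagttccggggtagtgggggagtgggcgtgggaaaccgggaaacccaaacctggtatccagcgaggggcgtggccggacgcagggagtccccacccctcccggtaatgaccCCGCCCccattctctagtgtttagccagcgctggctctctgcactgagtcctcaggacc
The window of Nrp1 (chr19:73256307-73256556, + strand) held neither motif.
Nrp1: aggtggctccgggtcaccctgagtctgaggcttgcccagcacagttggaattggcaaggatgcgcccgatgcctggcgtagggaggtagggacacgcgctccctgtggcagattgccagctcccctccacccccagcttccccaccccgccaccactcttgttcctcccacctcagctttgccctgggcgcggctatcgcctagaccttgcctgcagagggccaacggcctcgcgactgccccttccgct
The window of Hif1a (chr6:98359648-98359897, + strand) held ACGTG at 164 bases before the start and, as the palindrome CACGTG, on both strands at 229 and 228 bases.
Hif1a: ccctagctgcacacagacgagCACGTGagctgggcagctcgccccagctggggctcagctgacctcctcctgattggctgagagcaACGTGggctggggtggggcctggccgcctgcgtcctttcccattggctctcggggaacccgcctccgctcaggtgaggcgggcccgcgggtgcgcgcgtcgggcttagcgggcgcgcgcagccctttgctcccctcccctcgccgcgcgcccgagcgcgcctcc
The window of Slc2a1 (chr5:138002272-138002521, + strand) held 1 ACGTG at 51 bases and 3 GC boxes at 95, 60 and 35 bases before the start.
Slc2a1: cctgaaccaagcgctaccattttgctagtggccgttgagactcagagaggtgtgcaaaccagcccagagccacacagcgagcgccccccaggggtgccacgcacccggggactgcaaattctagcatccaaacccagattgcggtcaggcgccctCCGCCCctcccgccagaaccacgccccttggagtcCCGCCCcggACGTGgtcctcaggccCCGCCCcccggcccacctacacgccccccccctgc
The windows of Epas1, Flt1 and Adm, not printed, held no ACGTG and 5, 3 and 1 GC boxes. Of all 33469 windows of this length in the table, 16.6% held ACGTG and 30.5% held GGGCGG. A match describes the letters alone, and the arrays measured transcripts, not these windows. Bases farther from the start were not searched, so a window without a match does not show that the gene lacks such a site.

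The clearest pattern among these genes was lower Vegfa and Kdr in the injured T/HS lungs. For Vegfa the probe set rc_AA850734_at was 2.36-fold lower in T/HS than in T/SS, M32167_g_at 2.31-fold and L20913_s_at 1.76-fold. The fourth, M32167_at, differed by -0.19. Kdr was 1.46-fold lower. Hif1a, Flt1, Adm and Slc2a1 differed by less than 0.43 on the log2 scale in that comparison. These differences passed an unadjusted p of 0.05 for 4 of the 11 probe sets, where 8.8% of all probe sets tested (769 of 8740) did so, and none passed after adjustment, where 0% of all probe sets did. Of these 4, 3 read the same gene, Vegfa. With 1 probe set per gene, the one with the highest mean (M32167_at for Vegfa), 1 of the 7 genes passed unadjusted, Kdr, where 409 of 4736 genes did, and 1 lay lower and 1 higher without overlap. Both T/HS samples lay below both T/SS samples for 4 member probe sets, the same 4, against 20.9% of all probe sets, and above them for 2, Flt1 and Slc2a1 M13979_at, against 19.2%.

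**Figure D1:**
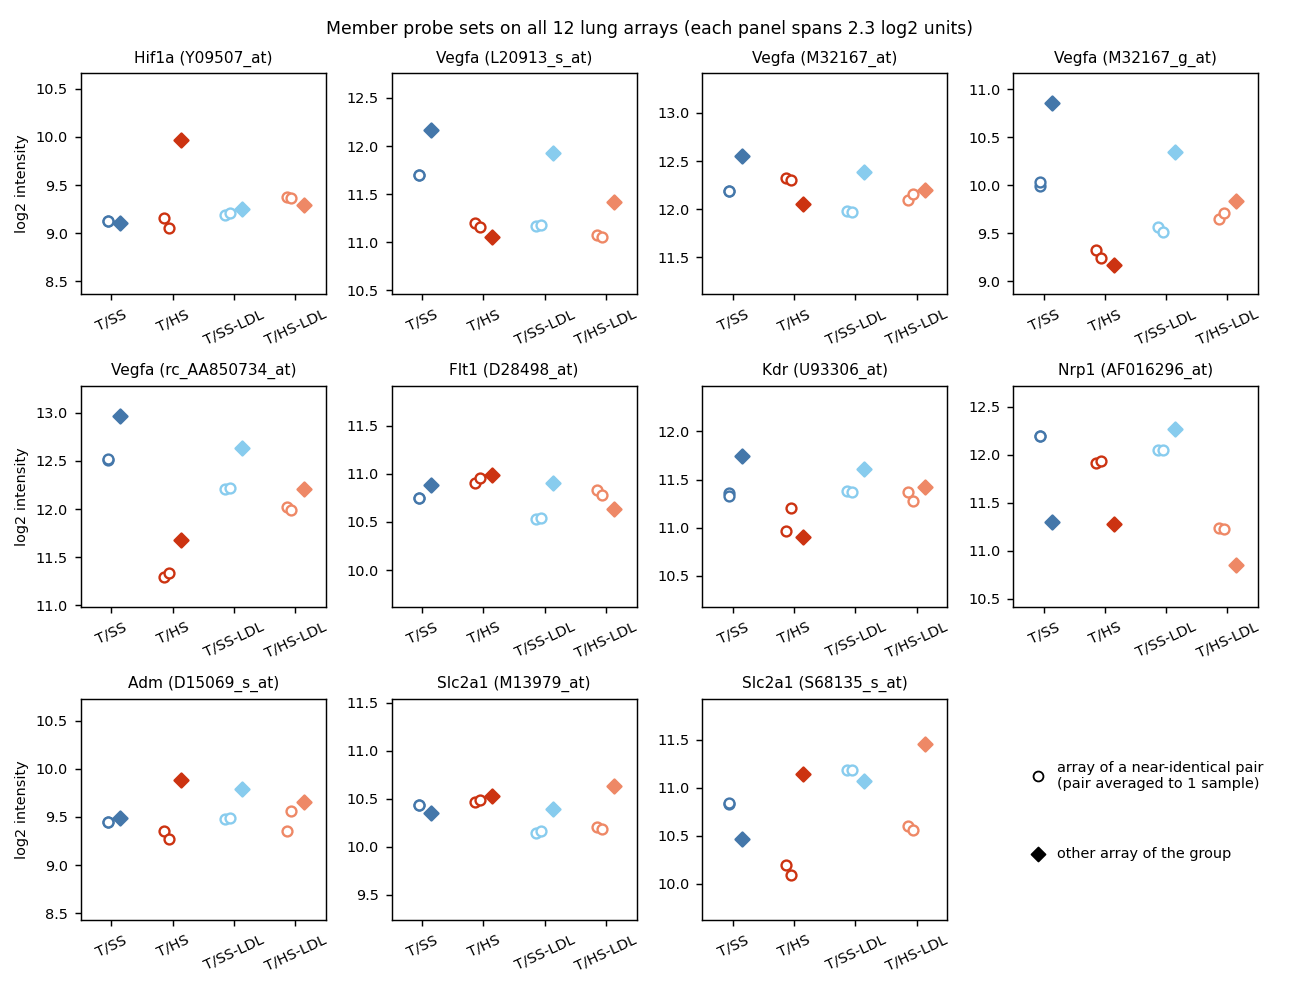
Log2 intensity of the 11 member probe sets on each of the 12 arrays, by group. Open circles are arrays of a near-identical pair, averaged to 1 sample, and filled diamonds the other array of the group. Vegfa rc_AA850734_at is at 11.29 to 11.68 in T/HS and at 11.98 or higher on every other array.

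Hif1a (Y09507_at), the oxygen regulated subunit, was measured at log2 9.10, 9.13 and 9.13 on replicates 1, 2 and 3 of T/SS and at 9.16, 9.97 and 9.06 in T/HS. It was measured at 9.19, 9.25 and 9.20 in T/SS-LDL and at 9.38, 9.29 and 9.37 in T/HS-LDL. Replicate 2 of T/HS stood 0.86 above the averaged pair of its group, and the other 11 arrays spanned 9.06 to 9.38. The T/HS samples overlapped those of T/SS, and the difference between them was 0.42 ± 0.25 (SE; 2 samples a group; limma adjusted p 0.659). It rested on that array: with the T/HS pair left out the difference was 0.85 (limma adjusted p 0.0223), resting on replicate 2 alone, and without replicate 2 it was -0.01. In the ligated groups, Hif1a was narrow and did not overlap, at 0.11 ± 0.25 higher in T/HS-LDL than in T/SS-LDL (unadjusted limma p 0.678). T/SS-LDL also lay above T/SS by 0.11 ± 0.25 without overlap (unadjusted limma p 0.678). Of all probe sets, 16.8% and 16.2% lay higher without overlap in these comparisons.

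Vegfa, the ligand, was highest in T/SS and lowest in T/HS on 3 of its 4 probe sets. On rc_AA850734_at the values were 12.96, 12.51 and 12.51 in T/SS, 11.29, 11.68 and 11.34 in T/HS, 12.21, 12.64 and 12.21 in T/SS-LDL, and 12.02, 12.21 and 11.98 in T/HS-LDL. In intensity units the 3 T/SS arrays read 7980, 5850 and 5853 and the 3 T/HS arrays 2512, 3276 and 2590. Every T/HS array lay below every array of the other 3 groups. The difference from T/SS was -1.24 ± 0.22 (95% interval -1.76 to -0.72, n = 2 samples per group), with an unadjusted limma p of 0.001, the rank of 13 among 8740 probe sets, and an adjusted p of 0.373. With any 1 sample left out it stayed between -1.46 and -1.02. It passed the threshold only when near-identical arrays were kept apart: the limma adjusted p was 0.00411 with 12 separate arrays and 0.0271 with each near-identical pair as a random block.

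M32167_g_at gave 10.86, 9.99 and 10.04 in T/SS, 9.33, 9.17 and 9.24 in T/HS, 9.57, 10.35 and 9.52 in T/SS-LDL, and 9.65, 9.84 and 9.71 in T/HS-LDL. The T/HS arrays were again the lowest of all, without overlap. The difference from T/SS was -1.21 ± 0.33 (limma adjusted p 0.419). With 12 separate arrays the limma adjusted p was 0.0315, with a replicate block on them 0.0526, and with each near-identical pair as a random block 0.126. Without T/SS replicate 1, the highest array, the difference was -0.78. L20913_s_at gave 12.17, 11.70 and 11.70 in T/SS, 11.20, 11.05 and 11.16 in T/HS, 11.17, 11.93 and 11.18 in T/SS-LDL, and 11.08, 11.42 and 11.05 in T/HS-LDL. Here T/HS lay below T/SS by 0.82 ± 0.27 (limma adjusted p 0.489) but overlapped T/HS-LDL.

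The fourth Vegfa probe set, M32167_at, did not separate the groups. It read 12.56, 12.19 and 12.19 in T/SS, 12.33, 12.05 and 12.31 in T/HS, 11.98, 12.38 and 11.97 in T/SS-LDL, and 12.10, 12.20 and 12.16 in T/HS-LDL. Its difference between T/HS and T/SS was -0.19 ± 0.19 (limma adjusted p 0.813), with overlap. Over the 8 samples, M32167_at correlated with rc_AA850734_at at r = 0.48, and with L20913_s_at and M32167_g_at at 0.81 and 0.77. The other 3 probe sets correlated with each other at 0.86 to 0.95. These r values share the same samples and describe them only. The size of the Vegfa difference therefore depended on the probe set read, from 1.14-fold to 2.36-fold lower in T/HS than in T/SS.

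**Figure D2:**
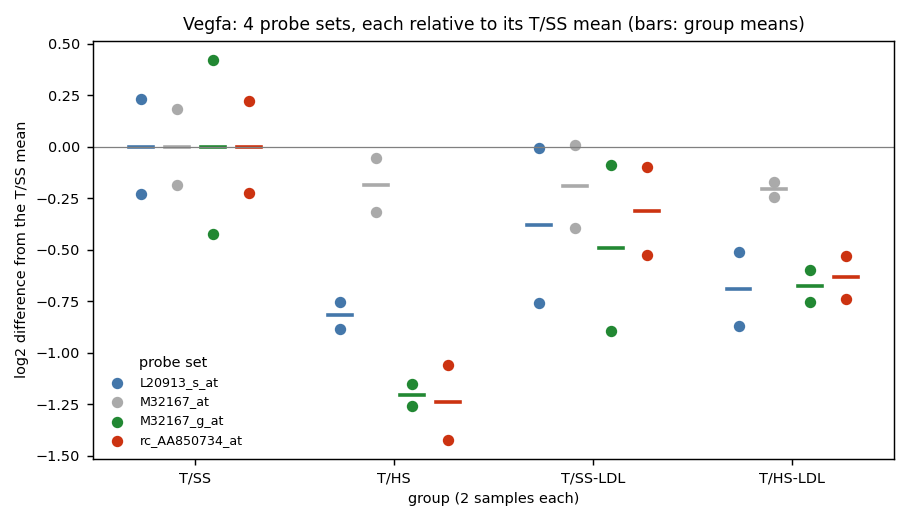
Log2 intensity of the 4 Vegfa probe sets for the 2 samples of each group, relative to the T/SS mean of each probe set; bars are group means. The T/HS samples are lowest on rc_AA850734_at and M32167_g_at, at mean differences of -1.24 and -1.21, and within the other groups' range on M32167_at.

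Kdr (U93306_at), the main signalling receptor for VEGF on endothelium, followed the same order of groups. It read 11.74, 11.36 and 11.33 in T/SS, 10.97, 10.90 and 11.20 in T/HS, 11.38, 11.61 and 11.37 in T/SS-LDL, and 11.37, 11.42 and 11.28 in T/HS-LDL. All 3 T/HS arrays lay below the other 9. The difference from T/SS was -0.55 ± 0.16 (unadjusted limma p 0.011, adjusted 0.434). The limma adjusted p was 0.0470 with 12 separate arrays, 0.0802 with a replicate block on them and 0.608 with each near-identical pair as a random block. Leaving out 1 sample gave -0.75 to -0.35, the smallest without T/SS replicate 1.

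Flt1 (D28498_at), the high affinity receptor that also acts as a decoy for VEGF, did not go with Kdr. Its values were 10.89, 10.75 and 10.75 in T/SS, 10.90, 10.99 and 10.96 in T/HS, 10.53, 10.91 and 10.54 in T/SS-LDL, and 10.84, 10.64 and 10.78 in T/HS-LDL. Flt1 in T/HS exceeded T/SS without overlap, by 0.14 ± 0.14 (limma adjusted p 0.813). The 12 arrays spanned less than 0.5 on the log2 scale. Whether the T/HS difference of Kdr differs from that of Flt1 was not tested.

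Against the other 3 groups at once, both T/HS samples were below all others for 3 member probe sets, Vegfa rc_AA850734_at, Vegfa M32167_g_at and Kdr, a rule chosen after these values were seen. This held for 7.72% of all probe sets. Both were above all others for 1, Flt1, against 6.88% of all probe sets.

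**Figure D3:**
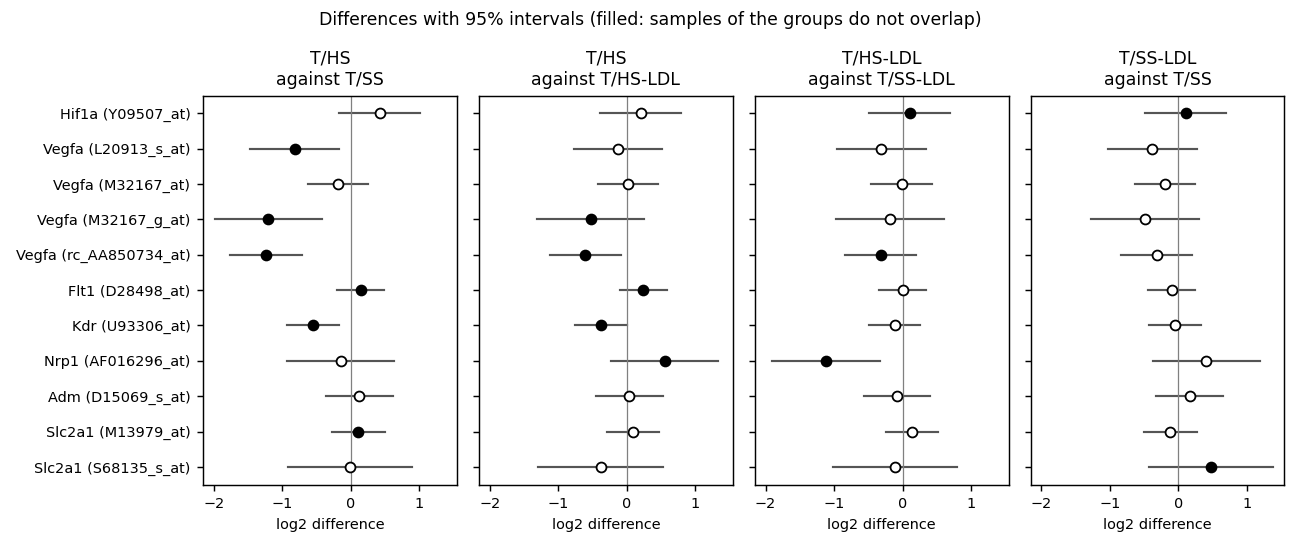
Log2 differences of the 11 member probe sets with 95% intervals from limma, in 4 comparisons of 2 against 2 samples; filled points mark groups that do not overlap. Without adjustment, the intervals farthest from 0 belong to Vegfa rc_AA850734_at, M32167_g_at and L20913_s_at and Kdr in T/HS against T/SS, and to Nrp1 at -1.12 in T/HS-LDL against T/SS-LDL.

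Nrp1 (AF016296_at), the co-receptor that binds the heparin binding forms of VEGF and class 3 semaphorins, varied within groups more than between T/HS and T/SS. It read 11.30, 12.19 and 12.20 in T/SS and 11.91, 11.28 and 11.93 in T/HS. The difference was -0.15 ± 0.33 (limma adjusted p 0.933), and leaving out 1 sample moved it between -0.60 and 0.30. In the ligated groups it read 12.05, 12.27 and 12.05 in T/SS-LDL and 11.24, 10.86 and 11.23 in T/HS-LDL. There all shocked arrays lay below all sham arrays, by 1.12 ± 0.33 or 2.17-fold (unadjusted limma p 0.012, adjusted 0.998), with a range of -1.30 to -0.93 when 1 sample was left out. T/HS lay above T/HS-LDL without overlap, by 0.55 ± 0.33 (limma adjusted p 0.780), or by 0.23 without the averaged T/HS pair.

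Adm (D15069_s_at) read 9.49, 9.45 and 9.45 in T/SS, 9.35, 9.89 and 9.27 in T/HS, 9.48, 9.79 and 9.49 in T/SS-LDL, and 9.35, 9.66 and 9.56 in T/HS-LDL. The samples of T/HS overlapped those of every other group. T/HS differed from T/SS by 0.13 ± 0.20 (limma adjusted p 0.903) and T/HS-LDL from T/SS-LDL by -0.08, so no difference in Adm was detectable with these samples.

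The probe sets of Slc2a1 correlated at r = 0.23 over the 8 samples. M13979_at was nearly level, at 10.35, 10.43 and 10.43 in T/SS, 10.47, 10.53 and 10.49 in T/HS, 10.15, 10.40 and 10.17 in T/SS-LDL, and 10.20, 10.63 and 10.19 in T/HS-LDL. T/HS lay above T/SS on it by 0.11 ± 0.16. S68135_s_at read 10.47, 10.83 and 10.84 in T/SS, 10.19, 11.14 and 10.09 in T/HS, 11.18, 11.07 and 11.19 in T/SS-LDL, and 10.60, 11.46 and 10.56 in T/HS-LDL. Replicate 2 of both shocked groups stood high, by 1.00 and 0.87 over the averaged pair, and the T/HS difference from T/SS was -0.01 ± 0.38. On this probe set T/SS-LDL lay above T/SS without overlap, by 0.47.

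In T/HS against T/HS-LDL, both shocked, Vegfa and Kdr were again lower in the injured lungs. Vegfa rc_AA850734_at differed by -0.61 ± 0.22 (unadjusted limma p 0.028, adjusted 0.775), M32167_g_at by -0.53 ± 0.33, and Kdr by -0.38 ± 0.16 (limma adjusted p 0.775). L20913_s_at and M32167_at differed by -0.13 and 0.02. At an unadjusted p of 0.05, 2 of the 11 member probe sets passed, rc_AA850734_at and Kdr, against 6.37% of all probe sets, and 0% passed after adjustment. Both T/HS samples lay below both T/HS-LDL samples for 3 (these and M32167_g_at), against 15.7% of all probe sets, and above them for 2 (Flt1 and Nrp1), against 18.4%. This comparison shares the T/HS samples with T/HS against T/SS.

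In T/HS-LDL against T/SS-LDL, where neither group was injured, the Vegfa differences were smaller. They were -0.32 ± 0.22 on rc_AA850734_at, -0.31 on L20913_s_at, -0.19 on M32167_g_at and -0.01 on M32167_at, and Kdr differed by -0.12. On rc_AA850734_at the difference was -0.11 without T/SS-LDL replicate 2 and -0.53 without the averaged pair of that group. Only Nrp1 passed an unadjusted p of 0.05, 1 of 11 against 3.79% of all probe sets, and 0% passed after adjustment. The shocked samples lay below the sham samples for 2 probe sets (Vegfa rc_AA850734_at and Nrp1), against 12.4% of all, and above for 1 (Hif1a), against 16.8%.

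Ligation without shock, T/SS-LDL against T/SS, gave -0.31 for Vegfa rc_AA850734_at, -0.49 for M32167_g_at, -0.38 for L20913_s_at, -0.05 for Kdr and 0.41 for Nrp1, all with overlapping groups. None of the 11 probe sets passed an unadjusted limma p of 0.05, against 4.23% of all, and 0% passed after adjustment. The ligated samples lay below for 0 members, against 24.5% of all probe sets, and above for 2 (Hif1a and Slc2a1 S68135_s_at), against 16.2%.

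The difference between the shock effects with open and with ligated duct was tested as an interaction for Vegfa, Kdr and Nrp1. It was -0.92 ± 0.31 for Vegfa rc_AA850734_at (unadjusted limma p 0.021, adjusted 1.0), -1.02 ± 0.47 for M32167_g_at, -0.51 ± 0.39 for L20913_s_at, -0.17 ± 0.26 for M32167_at, -0.43 ± 0.23 for Kdr and 0.97 ± 0.47 for Nrp1. Without T/SS replicate 1 it was -0.60 for M32167_g_at, -0.28 for L20913_s_at, -0.24 for Kdr and 0.52 for Nrp1, and without the averaged T/SS-LDL pair -0.13 for L20913_s_at. Of the 11 probe sets 1 passed unadjusted, rc_AA850734_at, against 2.99% of all, and 0% passed after adjustment. A weaker Vegfa or Kdr difference with the duct ligated is thus not shown by a test that passed. As the mean of both shock effects, Vegfa rc_AA850734_at differed by -0.78 ± 0.15 (unadjusted limma p 0.002, adjusted 0.298), M32167_g_at by -0.70 ± 0.23, L20913_s_at by -0.56 ± 0.19, Kdr by -0.33 ± 0.11 and Nrp1 by -0.63 ± 0.23 (limma adjusted p 0.508). These 5 of 11 passed unadjusted, against 9.04% of all probe sets, and 0% passed after adjustment. Of the 5, 3 read Vegfa, and with 1 probe set per gene 2 of 7 genes passed, Kdr and Nrp1, where 453 of 4736 did.

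Other genes of these pathways were read from lists and are described without a test. Of other HIF target genes, 30 of 47 were measured, with a median difference of 0.14 between T/HS and T/SS against -0.01 over all 4736 genes. Of the 30, 22 lay above 0 and 8 below, where 2266 and 2470 of the 4736 genes did. Of the 30, 5 passed an unadjusted p of 0.05, where 409 of all genes did. The most strongly measured of them, glycolytic enzymes, barely differed: Pgam1 by 0.05 ± 0.11, Pkm by 0.17 ± 0.12 and Eno1 by 0.10 ± 0.12. Those 5, named after their values were seen, were Hmox1 (heme oxygenase 1) at 1.37, Hk1 (hexokinase 1) at 0.57, Slc16a3 (a lactate exporter) at 0.51, Pfkfb3 (a regulator of glycolysis) at 0.51 and Tfrc (the transferrin receptor) at -0.33. In T/HS-LDL against T/SS-LDL the list's median was 0.04, against 0.01 over all genes, and none passed unadjusted. Of those 5 genes, Hmox1 differed by 0.97 there, without overlap, Hk1 by 0.04, Slc16a3 by 0.02, Pfkfb3 by 0.08 and Tfrc by 0.07. In T/SS-LDL against T/SS, 1 of the 30 passed unadjusted, Slc16a3 at 0.44, where 171 of all 4736 genes did. Vegfa, a target of the same factors, lay below 0 on all 4 of its probe sets in T/HS against T/SS, as did 8 of these 30 genes. On M32167_at the 95% interval included 0 (-0.63 to 0.25).

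Of the oxygen sensing genes and HIF partners, 13 of 21 were measured, with 7 above 0, 6 below and a median of 0.01 in T/HS against T/SS. None passed an unadjusted p of 0.05 there. In T/HS-LDL against T/SS-LDL, 2 of the 13 did, where 195 of all 4736 genes did. These 2, named after their values were seen, were Arnt, the partner of Hif1a, at 0.38 (unadjusted limma p 0.021, adjusted 0.998) and Bhlhe40 at 0.52. Arnt differed by 0.30 in T/HS against T/SS, without overlap. Vhl and Egln3, a prolyl hydroxylase, named outside the rule for their role, differed by 0.01 and -0.06 in T/HS against T/SS. The 3 most strongly measured of the list were Hsp90ab1 (a chaperone) at -0.25 ± 0.13, Rack1 at 0.14 ± 0.14 and Elob (elongin B, a part of the von Hippel-Lindau complex) at -0.02 ± 0.11.

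Of the other VEGF family members, receptors and co-receptors, 12 of 21 were measured, with 6 above 0, 6 below and a median of 0.01. Their most strongly measured genes, the heparan sulfate carriers Sdc4 and Sdc1 and the phosphatase Ptprj, differed by 0.11 ± 0.16, -0.22 ± 0.18 and 0.33 ± 0.19. Named outside the rule for their role, Vegfb, a ligand of Flt1, differed by -0.33, and the placental growth factor Pgf, another, by 0.19. The 1 gene of the list past an unadjusted p of 0.05 was the syndecan Sdc2, at -0.37, named after its value was seen. Of 51 VEGF receptor signalling genes, 36 were measured, with 18 above 0, 18 below and a median of -0.02. Of these 36, 11 lay lower in both T/HS samples than in both T/SS samples and 6 higher, where 989 and 887 of all 4736 genes did. An unadjusted p of 0.05 was passed by 2, named after their values were seen: Ppp3ca (a calcineurin subunit) at -0.44 and Rac1 (a small GTPase) at -0.31. Hspb1 (a heat shock protein), Cdc42 (a small GTPase) and Cav1 (caveolin 1) differed by -0.36 ± 0.22, -0.24 ± 0.12 and -0.32 ± 0.26.

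Of the angiopoietin and other vessel growth factor genes, 18 of 31 were measured, with a median of 0.01 and none past an unadjusted p of 0.05. Acvrl1, an endothelial receptor of the TGF-beta family, differed by -0.66 ± 0.28, Notch1 by 0.08 ± 0.17 and Timp3 by 0.16 ± 0.33. Of the adrenomedullin receptors and related peptides, 8 of 12 were measured and 6 lay below 0, with a median of -0.09. Calcrl, the receptor of adrenomedullin, differed by -0.62 ± 0.38, Gpr182 by 0.61 ± 0.25 and Pam, which amidates the peptide, by -0.09 ± 0.12. The 4 measured of 5 other glucose transporters had a median of 0.12: Slc2a5 differed by -0.15 ± 0.10, Slc2a4 by 0.25 ± 0.15 and Slc2a3 by 0.16 ± 0.19. No gene of the 7 lists passed an adjusted limma p of 0.05 in any comparison.

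**Figure D4:**
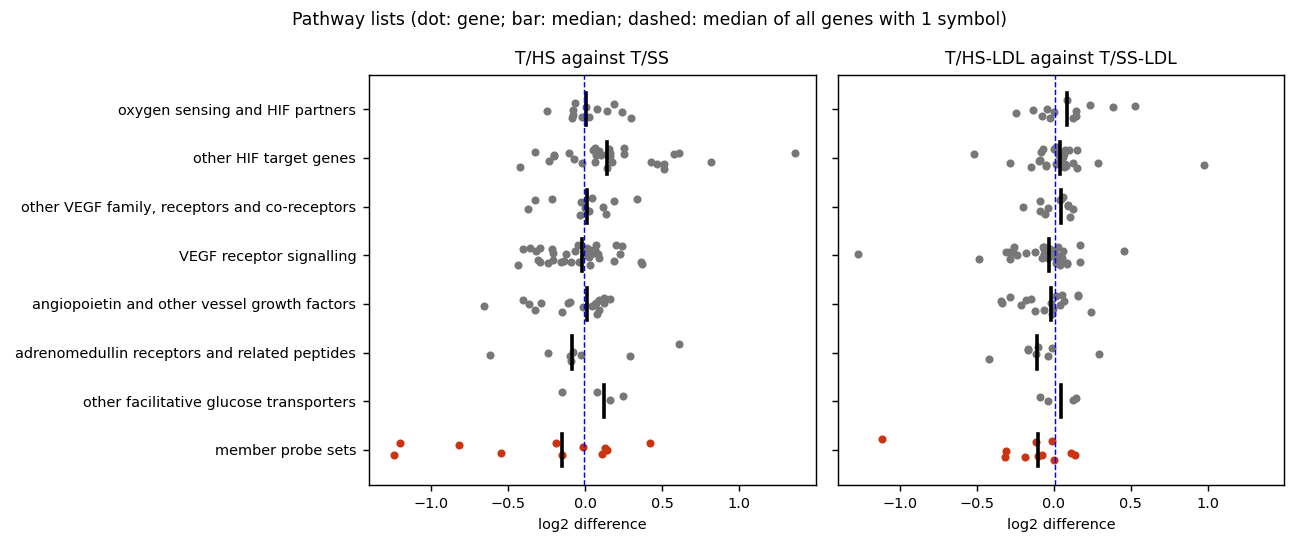
Log2 differences of the measured genes of the 7 pathway lists in T/HS against T/SS and in T/HS-LDL against T/SS-LDL; each point is a gene, each bar the list's median, and the red points the 11 member probe sets. The list medians lie between -0.11 and 0.14, and the dashed lines, the medians over all genes, at -0.01 and 0.01.

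Markers of several cell types, those that make or receive VEGF among them, were read beside these results and are described without a test. Of 20 endothelial markers 8 were measured, and 7 of the 8 lay below 0 in T/HS against T/SS, with a median of -0.16. In that comparison 2470 of all 4736 genes lay below 0 and 2266 above. Pecam1 differed by -0.36 ± 0.26, Egfl7 by -0.21 and Ace by -0.02. Their summed level was 48341 to 50890 intensity units in T/SS, 43017 to 48922 in T/HS, 46764 to 50450 in T/SS-LDL and 43226 to 45977 in T/HS-LDL. Of 6 alveolar type I markers 3 were measured and all lay below 0, Pdpn by 0.44 ± 0.16 and Aqp5 by 0.80 ± 0.38, with Ager near the top of the array's range at -0.01. Their summed level was 45689 to 46586 in T/SS, 39847 to 41919 in T/HS, 43483 to 44017 in T/SS-LDL and 39328 to 44314 in T/HS-LDL.

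The 4 measured alveolar type II markers of 8 had a median of 0.01, with Sftpc, Sftpb and Sftpa1 between -0.01 and 0.02 and near the top of the array's range, and the fourth, Sftpd, at 0.22. All 8 measured neutrophil markers of 17 lay above 0, and their summed level was 21234 to 26743 in T/SS, 36495 to 71593 in T/HS, 33354 to 44088 in T/SS-LDL and 62301 to 71659 in T/HS-LDL. Of 11 monocyte and macrophage markers 5 were measured and 4 lay above 0, with a median of 0.15. The largest difference among them was that of Cd14, at 1.25. Their summed level was 34123 to 36180 in T/SS, 37178 to 41188 in T/HS, 33627 to 34249 in T/SS-LDL and 31537 to 40800 in T/HS-LDL. Of 10 T and NK cell markers 9 were measured. Their summed level was 6885 to 7413 in T/SS, 13956 in the averaged pair of T/HS and 7381 on its replicate 2. It was 6461 to 6963 in T/SS-LDL and 6221 to 7596 in T/HS-LDL. In T/HS against T/SS, 6 of the 9 lay above 0 and 3 below, with a median of 0.12 and a maximum of 2.26. Smooth muscle and pericyte markers lay below 0 for 6 of 7 in T/HS against T/SS, with a median of -0.20. Beside the Nrp1 difference, all 7 measured smooth muscle and pericyte markers of 8 were lower in T/HS-LDL than in T/SS-LDL. Of all 4736 genes, 2236 were lower there. The median of these markers was -0.45, with summed levels of 37762 to 43749 against 54189 to 61339. The summed level of heart muscle markers, all 10 measured, ranged from 7174 to 19093 in T/HS-LDL and from 22156 to 25439 in T/SS-LDL. It also varied within T/SS, from 10431 to 21007, and was 19651 to 23191 in T/HS. In T/HS-LDL against T/SS-LDL, 8 of the 10 lay below 0 and 2 above. No marker was at 0 on this array scale, and the part of these cell markers in the Vegfa, Kdr and Nrp1 values was not tested.

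**Figure D5:**
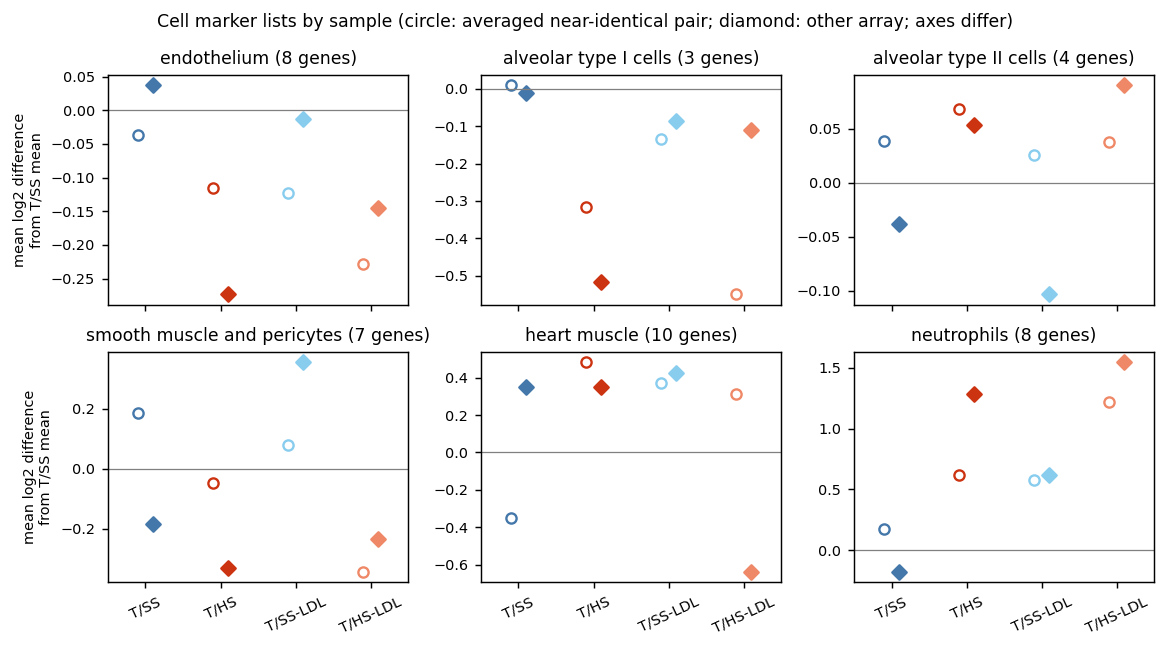
Mean log2 level of the measured markers of 6 cell types in the 8 samples, relative to the T/SS mean; circles are averaged pairs, diamonds the other arrays, and the axes differ. Alveolar type I markers lie at -0.52 and -0.32 in T/HS, endothelial markers at -0.27 and -0.12, and neutrophil markers at 0.62 and 1.29.

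The genes whose values were most like each member over the 8 samples were sought among all genes with 1 symbol, by Pearson's r, as a description. For Hif1a these were Plpp1 (0.979), Olr1 (0.975) and Slc16a1 (0.971), all high on replicate 2 of T/HS, where Olr1 read 11.86 against 8.84 to 9.56 in the other 7 samples. For Kdr they were Ppp1r9b (0.976), Gsk3a (0.974) and Fkbp1a (0.973), and for Flt1 Unc5b (0.968), Gabrb2 (0.955) and Atp1a4 (0.952). Vegfa entered through its brightest probe set, M32167_at, with Grm2 (0.947), Cmklr1 (0.939) and Hal (0.936). For Nrp1 they were Anp32a (0.925), Ptov1 (0.910) and Calml4 (0.902), for Adm Ppp1r2 (0.966), Ccnd3 (0.912) and Ywhag (0.880), and for Slc2a1 Ppp2r2a (0.942), Prim1 (0.939) and Immt (0.939).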

How the data were processed

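Lung RNA on 12 arrays was analysed from the deposited value table. The values are intensity units that the authors made with RMA, per the submitters' processing notes; its version is not given in the sources used here. All values are above 0 and linear, so log2 was taken with no further scaling, and no filter on low values was used. The table held 8799 probe sets, from which 59 controls of the array were removed. Symbols came from the platform table: 7006 probe sets had 1 symbol, 308 several and 1426 none, and 6985 gene IDs matched RefSeq with 0 symbols changed.

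Arrays of a group whose log2 differences had a robust SD under 0.1 were averaged. The 4 groups were fitted together with limma 3.58.1 in R 4.3.3 (lmFit, eBayes, two-sided, Benjamini-Hochberg over 8740 probe sets, 4 residual degrees of freedom), which was tested on simulated data. A group difference called non-overlapping has both samples of one group above both of the other.

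Named genes were all member probe sets and the 3 genes most correlated with each member's brightest probe set. The 3 brightest measured genes were also named for the pathway lists and the endothelial and alveolar marker lists, and exceptions are stated. For the other marker lists the brightest genes were not named, and erythroid markers were read but are not described. Members and lists were chosen with earlier results of these data known. Alternatives were 12 separate arrays with and without a replicate block, the near-identical arrays as a random block, median centring, quantile normalization, a filter on low values, an intensity trend in the prior, and leaving out each sample. Mean intensity was used across probe sets to choose which to name, and intensities were summed over the genes of a marker list. Such a sum weighs each gene by the brightness of its probe set. Gene lengths and probe sequences were not used here, so no level was compared between genes.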

Additional observations from a re-analysis of the deposited data

How the results depend on the processing

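With near-identical arrays averaged, 0 probe sets passed in all 6 comparisons, and 769, 557, 331, 370, 261 and 790 passed an unadjusted p of 0.05 in the order shock with open duct (T/HS, T/SS), ligation with shock (T/HS, T/HS-LDL), shock with ligated duct (T/HS-LDL, T/SS-LDL), ligation without shock (T/SS-LDL, T/SS), interaction, and shock over both duct states. In the same order, 12 separate arrays gave 629, 372, 127, 141, 1 and 733 calls, and 25, 0, 0, 0, 0 and 58 with each near-identical pair as a random block. Same-numbered arrays had deviations correlated at -0.17 to 0.19 (3 of 18 pairs over 0.1), so the numbers were not taken to pair the samples; the replicate block over 12 arrays gave 456, 130, 47, 21, 1 and 570 calls. With 1 sample left out, the counts ranged over 0 to 139, 0 to 66, 0 to 2, 0 to 2, 0 to 27 and 0 to 108; the count of 139 and those of 66, 27 and 108 came without the averaged T/HS pair, when replicate 2 alone stood for T/HS, and without replicate 2 they were 5, 4, 1 and 10. Of member probe sets in T/HS against T/SS, 3 were called with 12 arrays, 1 with the replicate block (Vegfa rc_AA850734_at, -1.23, limma adjusted p 0.00969) and 1 with the random block; over both duct states each of these called 1, the same probe set; with 1 sample left out 0 to 1 (Hif1a) were called. Direction turned for Adm in T/HS against T/HS-LDL (-0.023 with 12 arrays, with and without replicate block), and in T/HS-LDL against T/SS-LDL for Vegfa M32167_at (0.043 with 12 arrays, with and without block, 0.051 with quantile normalization) and Flt1 (-0.018 median centred). With 1 sample left out, direction also turned, over these ranges. With shock at an open duct it turned for Hif1a Y09507_at (-0.0083 to 0.85), Nrp1 AF016296_at (-0.60 to 0.30), Adm D15069_s_at (-0.16 to 0.41) and Slc2a1 S68135_s_at (-0.51 to 0.49). In T/HS against T/HS-LDL it turned for Hif1a Y09507_at (-0.22 to 0.64), Vegfa L20913_s_at (-0.31 to 0.051), Vegfa M32167_at (-0.11 to 0.15), Adm D15069_s_at (-0.25 to 0.33), Slc2a1 M13979_at (-0.13 to 0.31) and Slc2a1 S68135_s_at (-0.88 to 0.12). In T/HS-LDL against T/SS-LDL it turned for Vegfa L20913_s_at (-0.69 to 0.067), Vegfa M32167_at (-0.22 to 0.19), Vegfa M32167_g_at (-0.59 to 0.22), Flt1 D28498_at (-0.18 to 0.19), Kdr U93306_at (-0.23 to 0.0011), Adm D15069_s_at (-0.23 to 0.076), Slc2a1 M13979_at (-0.082 to 0.35) and Slc2a1 S68135_s_at (-0.54 to 0.33). In T/SS-LDL against T/SS it turned for Vegfa M32167_at (-0.40 to 0.0091), Flt1 D28498_at (-0.28 to 0.088), Kdr U93306_at (-0.25 to 0.14), Nrp1 AF016296_at (-0.035 to 0.86) and Slc2a1 M13979_at (-0.24 to 0.0049). In the interaction it turned for Vegfa M32167_at (-0.38 to 0.028). In shock over both duct states it turned for Vegfa M32167_at (-0.20 to 0.0012). Each of these had a size of at most 0.42 with all samples. No sign turned for T/HS against T/SS in Vegfa or Kdr under any of these settings. Vegfa M32167_at came close, however, with a range of -0.37 to -0.0022 when 1 sample was left out. The other settings (a filter on low values, an intensity trend in the prior) changed no direction and no call. A sample left alone in its group was assumed to vary like the other groups, and 2 samples a group limit what could be called.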

Other observations

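The array that was not averaged stood above the averaged pair in all 4 groups for Vegfa rc_AA850734_at, by 0.45 in T/SS, 0.36 in T/HS, 0.43 in T/SS-LDL and 0.21 in T/HS-LDL. Adm did the same, by 0.04, 0.58, 0.31 and 0.20. Of all 8740 probe sets, 401 (4.59%) did so, and 760 (8.70%) lay below in all 4 groups.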
